A study of Rattus norvegicus with 18 samples.

Results

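The high-protein diet (HPD) was set against both diets of normal protein content in peripheral blood mononuclear cells of rats. The 6 HPD arrays of the series were compared with the other 12, 6 of a high-fat diet (HFD) and 6 of a low-fat diet (LFD), 18 in all, and a gene was followed further where HPD lay on one side of both. Proteins, mainly casein, gave 45% of the energy of HPD, with 45% from carbohydrates and 10% from fat. HFD took 20% of its energy from protein, 20% from carbohydrates and 60% from fat, and LFD, the control diet, took 20% from protein, 70% from carbohydrates and 10% from fat. All rats were male Wistar animals, 2 months old when the diets began. The diets lasted 4 months and ended with a 14 h fast, with HFD and HPD given in amounts that matched the energy eaten on LFD. HPD and LFD therefore share their fat content and differ in protein and carbohydrate, while HPD and HFD differ in all 3 nutrients. Blood came from the saphenous vein and the cells from a Ficoll gradient. On each array, RNA of a single rat carried Cy5 and an equimolar mix of the samples carried Cy3, so every level below is a log2 ratio of 1 rat to that pool, and every difference is one of log2 ratios.

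The labels of 1 array conflict. Its title reads HFD, replicate 7, and its source name and description give HPD. It was counted as HPD replicate 7, and values without it, or with it counted as HFD, are given for the larger differences that shift with it by over 1.5 times.

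Protein in excess of need is broken down for energy. Amino groups pass through transamination to glutamate and ammonia and leave as urea, mostly in the liver, and the carbon enters the tricarboxylic acid cycle. Cells sense amino acids through mTORC1, a kinase complex that is active when amino acids are plentiful, and through GCN2 and the transcription factor ATF4, which act when they are scarce. Mononuclear cells of blood, mainly lymphocytes and monocytes, meet the amino acids of plasma and take them up through transporters of the Slc families.

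No probe passed limma's test for HPD against the mean of both other diets at an adjusted p under 0.05 (0 of 23823 probes, 0% called). The same held against LFD and against HFD, with lowest adjusted p of 0.524 and 0.996. For the comparison with both diets the lowest adjusted p was 0.35, for Glycam1. At an unadjusted p under 0.05 there were 690 probes (2.9% called), 424 with HPD higher and 266 with HPD lower, where 1191.2 would be reached with no difference at all. Against LFD there were 627 such probes (2.63% called) and against HFD 688 (2.89% called). Among named genes, 136 were higher in HPD (1.3% called) and 135 lower (1.29% called) against both diets together. The median standard error of a difference was 0.17 on the log2 scale. All directions below are therefore descriptions of these arrays and none is a called change.

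Against both diets in one direction, 180 probes reached an unadjusted p under 0.05 in each contrast (0.756% called), 112 with HPD higher (0.47% called) and 68 with HPD lower (0.285% called). Of 10493 named genes, 30 did so with HPD higher (0.286% called) and 33 with HPD lower (0.314% called). Since both contrasts share the 6 HPD arrays, these counts are no independent evidence. On means alone, HPD lay above both diets for 36.9% of the genes, below both for 34.2% and between them for 28.9%. The values of all HPD arrays lay above those of all 12 others for 3 probes (0.0126% called), and for 0 probes below them (0% called). These 3 were Glycam1, Slc39a1 and a probe with no gene name at chr1:79866877-79866935 (rn4), chosen for mention after its values were seen, whose difference was 0.44 ± 0.13 (SE). Without HPD replicate 7 the count was 5, and with that array counted as HFD it was 2.

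The arrays varied in ways that the diets do not account for, and this touches every result. By the names of the scanner output they lay on 5 slides. Slide 2 held 3 HPD and 1 HFD arrays, slide 3 held 1 HPD, 2 HFD and 1 LFD arrays, and slide 4 held 2 HPD and 2 LFD arrays. Slides 1 and 5 held no HPD array. LFD replicates 2 and 6 had the widest spread of log2 ratios, with median absolute deviations of 0.57 and 0.60. They lay at opposite ends of the first principal component, which held 28.6% of the variance. Correlations between arrays over all tested probes ran between -0.535 and 0.649, the highest between HFD replicates 1 and 6. The labels state the dyes, so the direction of the ratios was kept. Median spot intensity in Cy5 was 66.8 to 72.8 units on HPD arrays, 66.5 to 80.4 on HFD arrays and 61.5 to 84.3 on LFD arrays. In Cy5, 56.2 to 59.6% of probes were well above background on HPD arrays, 56.6 to 63% on HFD arrays and 53.1 to 63.4% on LFD arrays. The markers of T cells (Cd3e, Cd3g, Cd2), B cells (Cd79b, Ms4a1), NK cells (Nkg7, Prf1, Klrd1) and monocytes (Cd14, Lyz2, Csf1r) were well above background on all 18 arrays. So were Hbb, Alas2 and Slc4a1 of red cell precursors, Pf4 and Gp9 of platelets, and S100a8 and S100a9 of neutrophils, while the neutrophil collagenase Mmp8 was above background on 1 array. In a mixture of cells, fewer cells of a type and less RNA per cell cannot be told apart.

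Glycam1, a mucin-like glycoprotein known as a ligand of L-selectin in lymph node venules and as a milk protein, stood out most. Its probe lies at chr7:142455707-142455766 (rn4). Its log2 ratio was 0.59 at lowest, 0.71 in the median and 1.23 at highest on HPD arrays, against -1.05, -0.42 and 0.24 on HFD arrays and -1.02, -0.60 and 0.11 on LFD arrays. HPD arrays were all higher than the others, and 5 of them lay between 0.59 and 0.72. The difference from the mean of both diets was 1.24 ± 0.21 (SE), with an adjusted p of 0.35 in limma. It was 1.31 ± 0.24 against LFD and 1.18 ± 0.24 against HFD. With slide as a block it was 1.33, and it was 1.76 within slide 2, 0.59 within slide 3 and 1.57 within slide 4. Without HPD replicate 7 it was 1.25, and without LFD replicates 2 and 6 it was 1.24. From the Cy5 signal alone, with no pool in the ratio, it was 1.33 ± 0.28. With another background correction, normexp on all spots with loess, it was smaller, at 0.38 ± 0.07. That setting adds an offset of 50 to the signal of both channels, which by itself makes log ratios smaller. In the authors' deposited table the difference was 0.63 ± 0.12.

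Slc39a1, a zinc importer of the plasma membrane, was the other named gene whose groups did not overlap (chr2:182494126-182494185, rn4). Its log2 ratio was -0.03, 0.14 and 0.51 (lowest, median, highest) on HPD arrays, against -0.99, -0.31 and -0.22 on HFD arrays and -0.86, -0.31 and -0.07 on LFD arrays. The lowest HPD array and the highest LFD array lay close together. The difference was 0.59 ± 0.14 (SE, limma, adjusted p = 0.997), and 1.0, 0.50 and 0.91 within slides 2, 3 and 4. With normexp on all spots it was 0.13 ± 0.05. Its Cy5 signal was well above background on 6 HPD, 6 HFD and 4 LFD arrays.

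**Figure D1:**
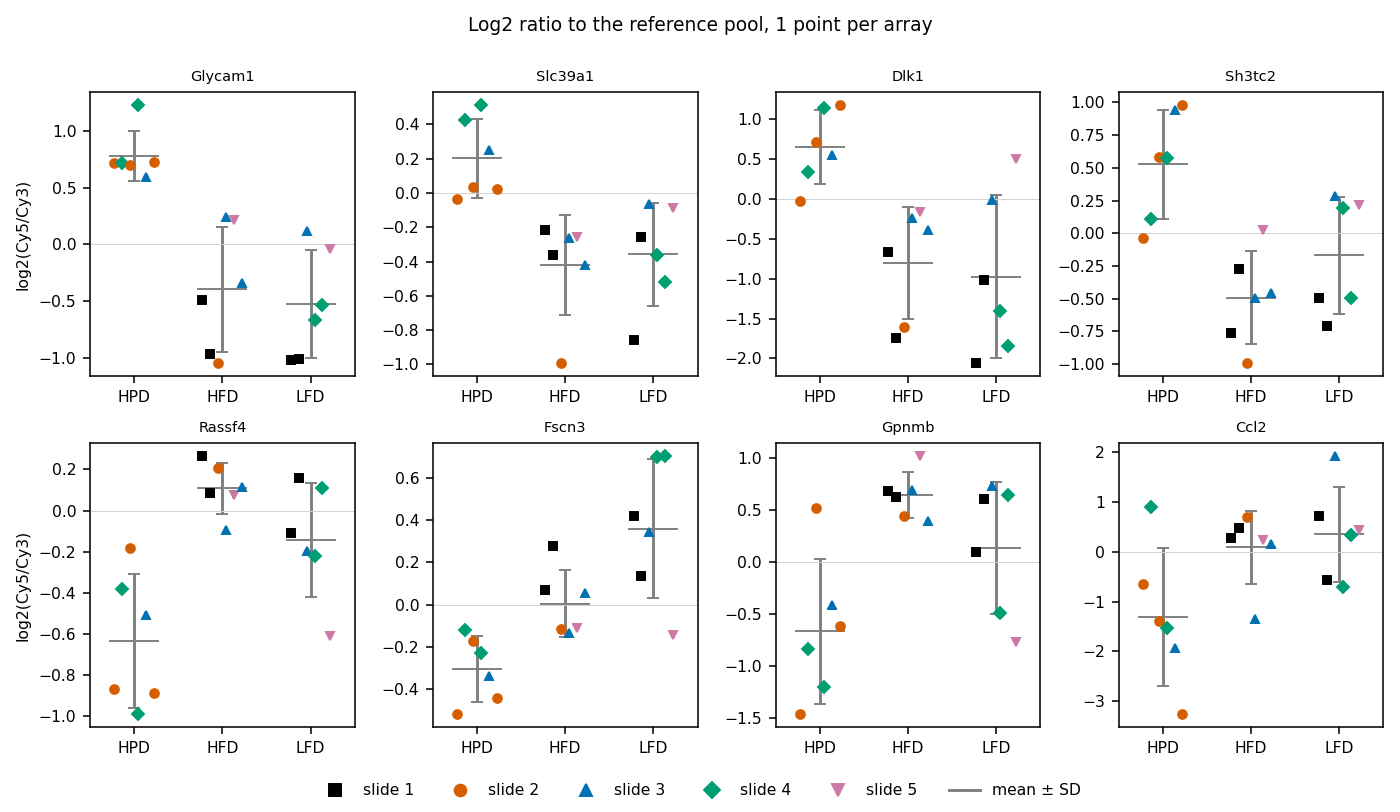
Log2 ratio of each array to the pool for 8 genes, with HPD, HFD and LFD from left to right, symbols for the slides, and grey bars for the mean and SD of a diet. For Glycam1 the lowest HPD array is at 0.59 and the highest other array at 0.24, while for Gpnmb and Ccl2 the groups overlap.

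Of the other genes with the smallest p on the higher side, 5 had large differences and overlapping groups. Dlk1, a membrane protein that holds back the differentiation of fat cell precursors, differed by 1.54 ± 0.35 (SE). Log2 ratios were -0.02, 0.63 and 1.18 on HPD arrays, against -1.74, -0.53 and -0.16 on HFD arrays and -2.06, -1.21 and 0.50 on LFD arrays. LFD replicates 3 and 6 reached into the HPD range, and the other LFD arrays and all HFD arrays lay below it. Kif19, a kinesin of motile cilia in the mouse, differed by 1.38 ± 0.33, and Ccl11, the eosinophil attractant eotaxin, by 1.37 ± 0.34. Rbm38, an RNA-binding protein induced by p53, differed by 0.94 ± 0.22, and the zinc finger gene Zbtb39 by 0.93 ± 0.24. For Dlk1, Kif19, Ccl11, Rbm38 and Zbtb39 alike, LFD replicate 1 was the lowest LFD array and LFD replicate 6 the highest.

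The remaining genes on that side were smaller in difference or less uniform. Sh3tc2, a gene of the Schwann cell in which human mutations cause a neuropathy, had log2 ratios of -0.03, 0.58 and 0.98 on HPD arrays, against -0.99, -0.48 and 0.02 on HFD arrays and -0.71, -0.15 and 0.29 on LFD arrays. Its difference was 0.86 ± 0.20. Zdhhc20, a palmitoyltransferase, differed by 0.35 ± 0.09 on its brightest probe and by 0.06 on the other. From Cy5 alone the brightest probe differed by 0.0074 ± 0.14. Ccnc, cyclin C of the Mediator kinase module, differed by 0.39 ± 0.11 on one probe and by -0.0034 on the other, so its 2 probes disagree.

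On the lower side the groups overlapped for every gene. Rassf4, a Ras association domain protein, had the smallest p (chr4:152988803-152989975, rn4). Its log2 ratio was -0.99, -0.69 and -0.18 (lowest, median, highest) on HPD arrays, against -0.09, 0.10 and 0.26 on HFD arrays and -0.61, -0.15 and 0.16 on LFD arrays. HPD lay apart from HFD and overlapped LFD. The difference was -0.62 ± 0.13 (SE, limma, adjusted p = 0.997), and -0.85, -0.45 and -0.63 within slides 2, 3 and 4.

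Gpnmb, a glycoprotein of macrophages and pigment cells, differed by -1.06 ± 0.26. The log2 ratio was -1.47, -0.73 and 0.52 on HPD arrays, against 0.39, 0.65 and 1.01 on HFD arrays and -0.77, 0.35 and 0.72 on LFD arrays. A single HPD array, replicate 3, was above 0. Nt5e, the enzyme CD73 that makes adenosine from AMP, differed by -0.48 ± 0.14, with 0.06 as the lowest HFD value and -0.01 as the highest HPD value. LFD arrays ran between -0.62 and 0.51 and overlapped HPD arrays, which ran between -0.77 and -0.01. Fscn3, a fascin best known from testis, differed by -0.48 ± 0.12 from both diets, by -0.66 ± 0.14 from LFD and by -0.31 ± 0.14 from HFD. When limma weighted the arrays by their quality, Fscn3 was the 1 probe called in any comparison, for HPD against LFD at -0.83 ± 0.12 with an adjusted p of 0.0315, where the unweighted adjusted p was 0.954.

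The other 6 rested on weaker signals or wider spreads. Eeig2 differed by -1.39 ± 0.37, but its Cy5 signal was well above background on 1 HPD array, against 5 HFD and 5 LFD arrays. Ccdc14, a protein of centriolar satellites, differed by -1.15 ± 0.32 and was above background on 2 HPD, 5 HFD and 4 LFD arrays. Plk2, a polo-like kinase, differed by -1.0 ± 0.30 over all arrays and by 0.22 within slide 4. Lrp12, of the LDL receptor family, differed by -0.99 ± 0.29 and was above background on 3 HPD, 5 HFD and 2 LFD arrays. Ift43, of intraflagellar transport, differed by -0.64 ± 0.16, and by -0.39 from Cy5 alone. Slpi-ps1, which the annotation lists as a pseudogene of a leukocyte peptidase inhibitor, differed by -0.29 ± 0.08, and a near-identical copy could share its probe.

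**Figure D2:**
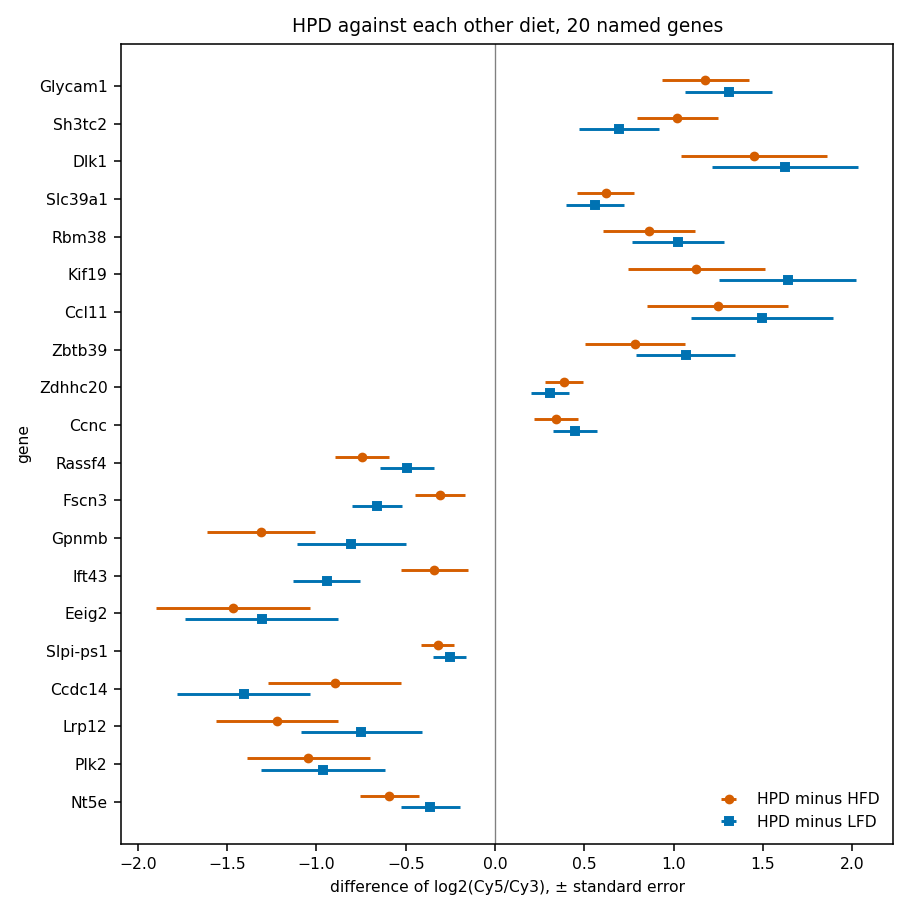
Difference of HPD from HFD (circles) and from LFD (squares) for the 20 genes with the smallest p, 10 on each side, with standard errors. Glycam1 lies at 1.18 against HFD and 1.31 against LFD, while Ift43 lies at -0.34 against HFD and -0.94 against LFD.

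All 10 genes on the higher side kept their sign within slides 2, 3 and 4. On the lower side, all 10 did so within slides 2 and 3, and 9 within slide 4, with Plk2 as the exception. These genes were chosen from the same arrays, so the signs within slides are a description and no separate test. The sizes depended on the processing. Normexp on all spots adds an offset of 50 to both channels, which by itself makes log ratios smaller. The part of that offset was not tested. With normexp on all spots all 20 kept their sign, but 18 were over 1.5 times smaller, with Ccdc14 at -0.09 ± 0.06 and Ift43 at -0.08 ± 0.05, while Kif19 and Rbm38, at 0.94 ± 0.20 and 0.76 ± 0.17, were the other 2. Of the 20, 14 were measured in the authors' deposited table, all 14 with the same sign and 8 of them over 1.5 times smaller.

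**Figure D3:**
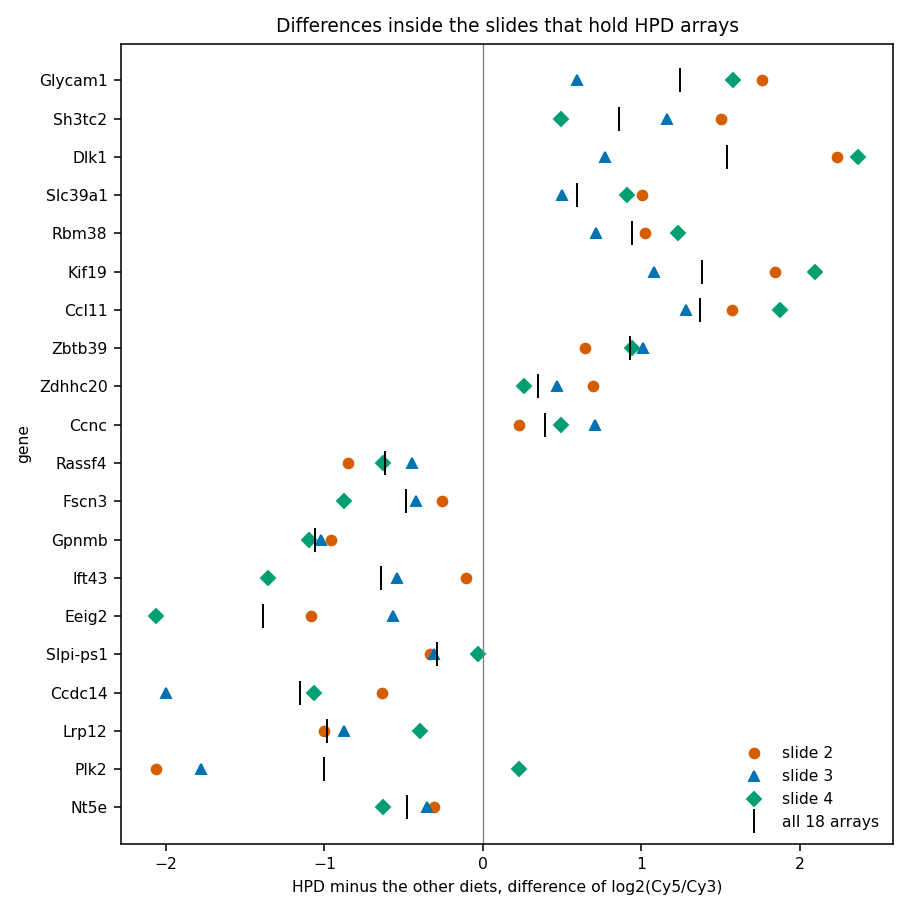
Difference of HPD from the other diets within slide 2 (circles), slide 3 (triangles) and slide 4 (diamonds), beside the value over all 18 arrays (bars), for the same 20 genes. Dlk1 lies at 2.23, 0.77 and 2.37, and Plk2 at -2.06, -1.77 and 0.22.

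Genes of amino acid handling stayed near the median of all genes, apart from those of arginine and urea, whose shift depended on the setting. Over all genes the median difference was 0.0068, and 36.9% of genes lay above both diets and 34.2% below. The counts of each list below are to be read beside these shares. Members named by rule came from the side that more of their list took, so they share its direction by choice. In the ATF4 response, 7 of 32 measured genes lay above both diets and 15 below, with a median of -0.03. Jdp2, a repressor of the AP-1 family, differed by -0.88 ± 0.37 and was above background on 3 HPD arrays. Atf3, a stress-induced factor, differed by -0.63 ± 0.33, Cebpb by -0.39 ± 0.23 and Atf4 itself by -0.17 ± 0.10. Among mTORC1 and amino acid sensing genes, 12 of 37 lay above both and 16 below, with a median of -0.01. Ulk1, the kinase that starts autophagy and is held in check by mTORC1, differed by -0.25 ± 0.12, and Eif4ebp1, a translation repressor that mTORC1 phosphorylates, by -0.21 ± 0.16.

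Of 24 genes listed as amino acid transporters, 8 lay above both diets and 11 below, with a median of -0.04. Slc7a8 differed by -0.24 ± 0.18, and Slc3a2, the shared heavy chain of several carriers, by -0.13 ± 0.15. Slc36a1, a lysosomal amino acid carrier, differed by -0.43 ± 0.24 in the ratio and by 0.08 from Cy5 alone, and it was above background on 1 HPD, 6 HFD and 2 LFD arrays, so that it passed the filter through HFD. Slc7a1, the cationic amino acid carrier CAT1, lay on the other side at 0.37 ± 0.16. It was the 1 gene of these 24 at an unadjusted p under 0.05, where 1.3% of all genes were higher and 1.29% lower at that threshold. It was singled out after its value was seen.

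In the breakdown of branched-chain amino acids, 8 of 24 genes lay above both diets and 5 below, with a median of 0.01. Bcat2, the mitochondrial transaminase that opens the pathway, differed by 0.17 ± 0.12, and Mccc2, a subunit of the leucine pathway's carboxylase, by 0.19 ± 0.13. In transamination and ammonia handling, 5 of 21 lay above and 9 below, with a median of -0.01. Glul, which makes glutamine, differed by -0.11 ± 0.13 and Glud1, glutamate dehydrogenase, by -0.09 ± 0.07. The differences of these 4 genes were under 2 standard errors. For serine, glycine, tryptophan, tyrosine and lysine, 10 of 21 lay above and 3 below, with a median of 0.04. Sdsl, a serine dehydratase-like gene, differed by 0.74 ± 0.39, and its HPD arrays ran between -0.20 and 3.20. For methionine, cysteine and glutathione, 7 of 24 lay above and 10 below, with a median of -0.07.

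For arginine, the urea cycle and polyamines, 2 of 17 genes lay above both diets and 12 below, with a median of -0.15. Nags makes N-acetylglutamate, the activator of the first urea cycle enzyme. Its log2 ratio was -1.41, -0.56 and 0.02 on HPD arrays, against -0.21, 0.00 and 0.55 on HFD arrays and -0.68, -0.14 and 0.50 on LFD arrays. The groups overlapped, and the difference was -0.57 ± 0.20 over all arrays and 0.10 within slide 4. Gatm, of creatine synthesis, differed by -0.62 ± 0.26 over all arrays, by 0.35 and 0.12 within slides 2 and 3 and by -1.64 within slide 4. Ass1, argininosuccinate synthase, differed by -0.70 ± 0.35 and was above background on 1 HPD, 4 HFD and 5 LFD arrays, and with HPD replicate 7 counted as HFD it differed by -0.39. Odc1, which starts polyamine synthesis, differed by -0.32 ± 0.25 over all arrays and by 0.26 within slide 4. The list's mean was -0.42 to 0.03 on HPD arrays, against -0.32 to 0.26 on HFD arrays and -0.30 to 0.10 on LFD arrays. HFD replicates 1 and 6 were at 0.26 and 0.23, and the other HFD arrays lay between -0.32 and -0.01, within the HPD range. The list's median within slides 2, 3 and 4 was -0.20, -0.20 and -0.10. The median was -0.09 without HPD replicate 4, -0.10 without HPD replicate 3 and -0.03 in the authors' deposited table. Among probes above background on all 18 arrays it was -0.05. With normexp, whose offset makes log ratios smaller, it was -0.10 on all spots and -0.07 without marked spots.

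Of the lists on fuel use, the genes under NRF2 stood lowest and the others lay nearer to the median of all genes. In the tricarboxylic acid cycle, 13 of 26 lay above both diets and 7 below, with a median of 0.02, and in fatty acid oxidation 12 of 28 lay above and 6 below, with a median of 0.05. For fatty acid oxidation the median was 0.0029 without HPD replicate 7, -0.0088 with that array counted as HFD and -0.0055 with slide as a block. In glycolysis, 6 of 28 lay above and 12 below, with a median of -0.08, and Hk1, a hexokinase, differed by -0.36 ± 0.18. In fatty acid and cholesterol synthesis, 9 of 29 lay above and 12 below, with a median of -0.03. For the antioxidant and pentose phosphate genes under NRF2, 3 of 24 lay above and 19 below, with a median of -0.18. That median was -0.12 with slide as a block, -0.08 without slide 1, and -0.11, -0.11, -0.10 and -0.10 without HPD replicate 1, HPD replicate 4, HFD replicate 1 and LFD replicate 2. The list's mean was 0.38 and 0.29 on HFD replicates 1 and 6, and between -0.37 and -0.01 on the other HFD arrays. With HFD replicates 1 and 6 averaged the list's median was -0.11. Tkt, transketolase, differed by -0.27 ± 0.15 and Ftl1, ferritin light chain, by -0.30 ± 0.18.

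Cytosolic ribosomal proteins lay mostly on the higher side, by little. Of 74 measured genes, 57 lay above both diets and 6 below, with a median of 0.07, where 36.9% of all genes lay above. Rps6, a protein of the small subunit, differed by 0.18 ± 0.09 and Rpl35, of the large subunit, by 0.13 ± 0.07. The list's mean was 0.01 to 0.13 on HPD arrays, against -0.12 to 0.12 on HFD arrays and -0.19 to 0.11 on LFD arrays. Its median was 0.06, 0.05 and -0.02 within slides 2, 3 and 4, 0.03 with slide as a block and 0.02 without slide 1, which held no HPD array. From Cy5 alone Rps6 differed by 0.03. In the proteasome 18 of 36 lay above and 6 below, with a median of 0.02, and in translation factors 17 of 37 lay above and 6 below, with a median of 0.02.

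**Figure D4:**
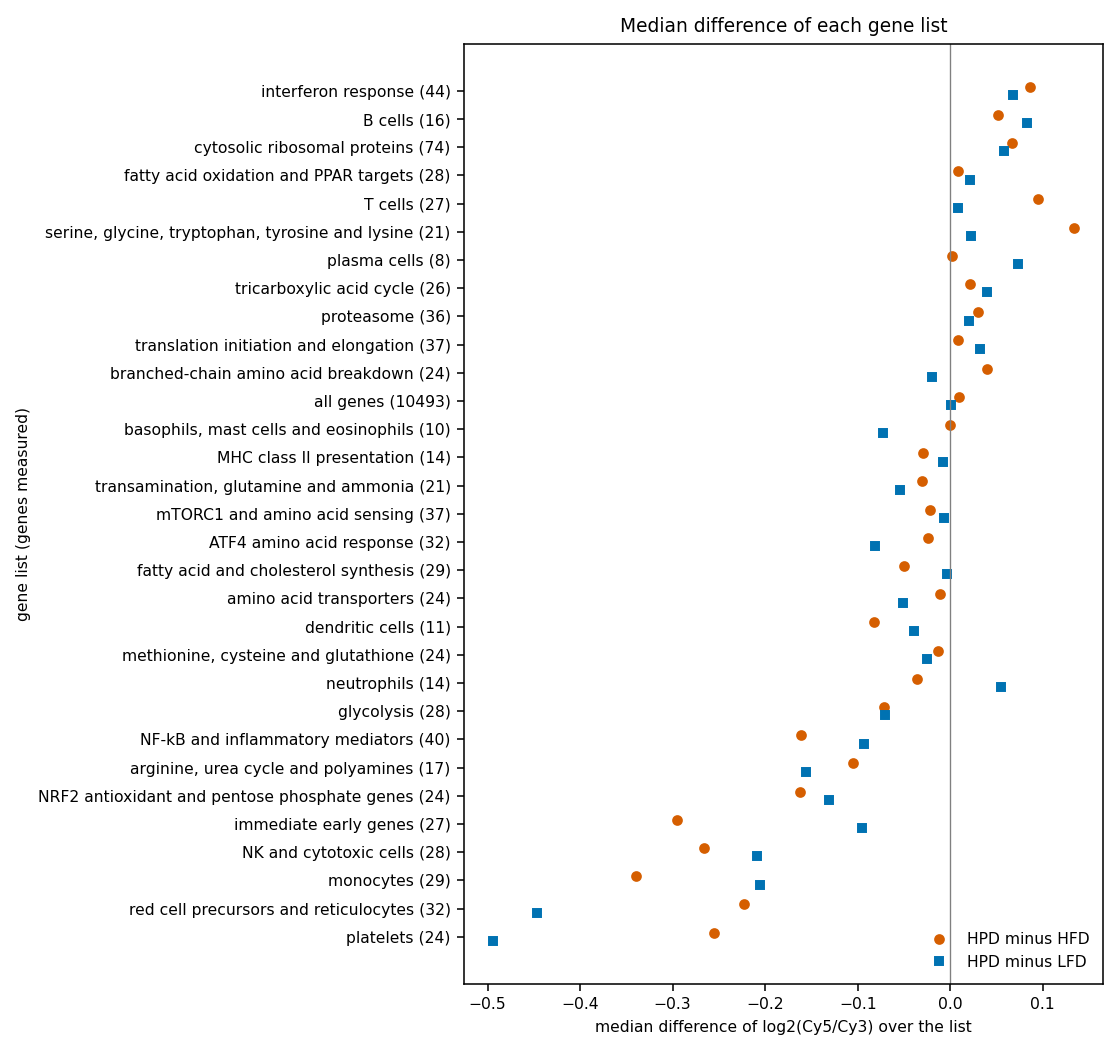
Median difference of HPD from HFD (circles) and from LFD (squares) over the measured genes of each list, with the number of genes in brackets, ordered by the median difference from both. Platelet genes lie at -0.26 against HFD and -0.49 against LFD, and all genes at 0.0097 and 0.0013.

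Inflammatory and early response genes lay mostly on the lower side, where 34.2% of all genes lay below both diets. Among NF-kB targets and inflammatory mediators, 5 of 40 lay above both diets and 25 below, with a median of -0.13. The median was -0.21 with slide as a block, -0.21 without HPD replicate 2 and -0.08 without HPD replicate 4. Ccl2, which draws monocytes, differed by -1.53 ± 0.49 (SE, limma, adjusted p = 0.997). Log2 ratios were -3.26, -1.45 and 0.91 on HPD arrays, against -1.34, 0.26 and 0.70 on HFD arrays and -0.71, 0.38 and 1.92 on LFD arrays. HPD replicate 2 was among the high arrays, the other 5 HPD arrays were below 0, and HPD replicate 7, the array with conflicting labels, was the lowest. Without that array the difference was -1.14, and with it counted as HFD it was -0.90.

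The neutrophil attractants Cxcl1 and Cxcl2 differed by -2.08 ± 1.14 and -1.58 ± 0.82. Without HPD replicate 7 these were -1.52 and -1.09, and with it counted as HFD -1.13 and -0.76. Cxcl1 was well above background on 3 HPD, 6 HFD and 4 LFD arrays, so its lowest ratios have no order. Within slide 4 Ccl2, Cxcl1 and Cxcl2 differed by -0.12, -0.45 and -0.13, against -2.47, -3.11 and -2.08 within slide 2. Over all settings, slide 3 with its 1 HPD array among them, the lowest differences were -2.47, -4.26 and -3.11. Promoters of Cxcl1 and Cxcl2 are shown because both genes lie on the lower side and NF-kB is known to act on them. Glycam1 is shown beside them as the gene with the smallest p. Each is 300 bases long, from upstream of the gene's start to 50 bases after it, on the minus strand (RefSeq, GRCr8). Capitals mark a match to GGGANTT, the first letters of a common NF-kB site, searched on both strands with overlaps counted. This shortened form was chosen after the sequences had been seen and a longer form of the site had been tried. For Cxcl1 they cover chr14:17479272-17479571, for Cxcl2 chr14:17467206-17467505 and for Glycam1 chr7:136561250-136561549.
Cxcl1: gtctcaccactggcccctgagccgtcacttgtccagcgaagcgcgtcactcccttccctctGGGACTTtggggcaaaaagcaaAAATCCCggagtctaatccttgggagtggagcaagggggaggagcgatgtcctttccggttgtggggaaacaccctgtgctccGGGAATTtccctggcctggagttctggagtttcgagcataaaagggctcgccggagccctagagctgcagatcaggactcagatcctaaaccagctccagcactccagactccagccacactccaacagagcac
Cxcl2: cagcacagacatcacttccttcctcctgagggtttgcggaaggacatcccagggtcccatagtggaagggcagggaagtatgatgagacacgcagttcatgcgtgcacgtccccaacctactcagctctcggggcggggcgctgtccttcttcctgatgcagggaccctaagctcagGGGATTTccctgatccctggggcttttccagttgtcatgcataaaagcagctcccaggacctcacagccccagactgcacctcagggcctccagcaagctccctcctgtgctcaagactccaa
Glycam1: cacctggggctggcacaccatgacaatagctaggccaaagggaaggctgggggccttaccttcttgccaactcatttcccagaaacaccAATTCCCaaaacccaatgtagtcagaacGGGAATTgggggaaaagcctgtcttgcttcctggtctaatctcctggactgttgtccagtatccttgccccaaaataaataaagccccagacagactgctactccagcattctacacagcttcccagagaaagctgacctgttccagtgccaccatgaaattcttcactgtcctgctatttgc
Cxcl1 has 3 matches, beginning at -189, -167 and -84 relative to the start, Cxcl2 has 1, at -73, and Glycam1 has 2, at -161 and -133. Of 33469 promoters in the table, 5749 (17.2%) hold the letters, so they are common. A match describes the letters and is no evidence of binding in these cells.

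Of the immediate early genes, which respond within minutes to stimuli and to handling of cells, 2 of 27 lay above both diets and 20 below, with a median of -0.22. Over all genes 36.9% lay above and 34.2% below. Ier2 differed by -0.39 ± 0.16, Nr4a1 by -0.43 ± 0.21 and Fos by -0.43 ± 0.23. The list's median was -0.52, -0.26 and -0.02 within slides 2, 3 and 4. It was -0.07 without HPD replicate 7 and -0.02 with that array counted as HFD, where Ier2 differed by -0.22 and Fos by -0.23. Interferon response genes lay on the other side, 24 of 44 above both diets and 10 below, with a median of 0.10. Oas1b, a sensor of double-stranded RNA, differed by 0.68 ± 0.29 and the exonuclease Isg20 by 0.20 ± 0.09. The list's mean ran between -0.59 and 0.28 on HPD arrays, against -0.54 and 0.05 on HFD arrays and -0.70 and 0.57 on LFD arrays, and its median was -0.04 within slide 4, 0.20 without slide 1, 0.04 without HPD replicate 2, 0.175 without HPD replicate 4, 0.15 without LFD replicate 2 and 0.05 without LFD replicate 6. For class II antigen presentation 3 of 14 lay above and 5 below, with a median of -0.0048.

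Markers of several blood cell types also stood lower on HPD arrays, beside these lists. Of 29 monocyte genes, 1 lay above both diets and 26 below, with a median of -0.28, where 36.9% of all genes lay above and 34.2% below. Cd14, the monocyte receptor for lipopolysaccharide, had log2 ratios of -2.09, -1.31 and 0.75 on HPD arrays, against -1.05, 0.26 and 1.48 on HFD arrays and -1.78, -0.28 and 0.91 on LFD arrays. The groups overlapped and the difference was -1.15 ± 0.47 over all arrays and 0.03 within slide 4. HPD replicate 2 was again the highest HPD array, for Cd14 and Ccl2 alike. The monocyte list's mean was -1.08 to 0.26 on HPD arrays, against -0.38 to 0.67 on HFD arrays and -0.42 to 0.17 on LFD arrays. HFD replicates 1 and 6 were at 0.67 and 0.51, and the other HFD arrays lay between -0.38 and 0.03. The list's median was 0.12 within slide 2 and -0.45 and -0.39 within slides 3 and 4, and -0.155 without HPD replicate 4. The part of monocytes in the differences of Ccl2, Cxcl1, Cxcl2 and Gpnmb was not tested.

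Of 28 NK and cytotoxic genes, 2 lay above both diets and 23 below, with a median of -0.27. Klrb1b, a lectin-like receptor, differed by -0.82 ± 0.34 and Ifng, interferon gamma, by -0.59 ± 0.28. With HPD replicate 7 counted as HFD Ifng differed by -0.27. Both turned sign inside a slide, Klrb1b to 0.03 within slide 3 and Ifng to 0.50 within slide 4. The defining markers Klrd1, Nkg7 and Prf1 differed by -0.13 ± 0.17, -0.15 ± 0.14 and -0.32 ± 0.19. The list's mean was -0.64 to 0.25 on HPD arrays, against -0.43 to 0.27 on HFD arrays and -0.615 to 0.50 on LFD arrays, so the groups overlapped. The list's median was 0.02 within slide 3, -0.11 with slide as a block, -0.12 without slide 1 and -0.17 without HPD replicate 4. Of 24 platelet genes, 0 lay above both diets and 21 below, with a median of -0.36, and Pf4, platelet factor, differed by -0.65 ± 0.47. Of 32 genes of red cell precursors, 4 lay above and 24 below, with a median of -0.33, and Alas2, of heme synthesis, differed by -0.73 ± 0.41. Without slide 1 the red cell median was -0.17. Within slide 4 both medians were near 0, at -0.01 for platelets and -0.01 for red cells. The platelet mean was -1.15 to -0.06 on HPD arrays, against -1.70 to 0.87 on HFD arrays and -0.54 to 1.02 on LFD arrays. The high values were those of LFD replicate 2, at 1.02, and HFD replicates 1 and 6, at 0.87 and 0.68. The other HFD and LFD arrays lay between -1.70 and 0.18.

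T cell genes were close to balance, 12 of 27 above both diets and 7 below, with a median of 0.04, and Cd3e differed by 0.09 ± 0.22. B cell genes had 9 of 16 above and 3 below, with a median of 0.07, a sign that depended on HPD replicate 7. The median was -0.05 without that array, -0.10 with it counted as HFD and -0.14 within slide 4. For plasma cells 5 of 8 lay above and 3 below, with a median of 0.04. For dendritic cells 3 of 11 lay above and 6 below, with a median of -0.06. For basophils, mast cells and eosinophils 2 of 10 lay above and 4 below, with a median of -0.0043. For neutrophils 6 of 14 lay above and 5 below, but the median was -0.08. That median was 0.36, -0.22 and -0.30 within slides 2, 3 and 4, and 0.10 without HPD replicate 4. Over the 30 lists, some of which share genes, 0 members were called.

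**Figure D5:**
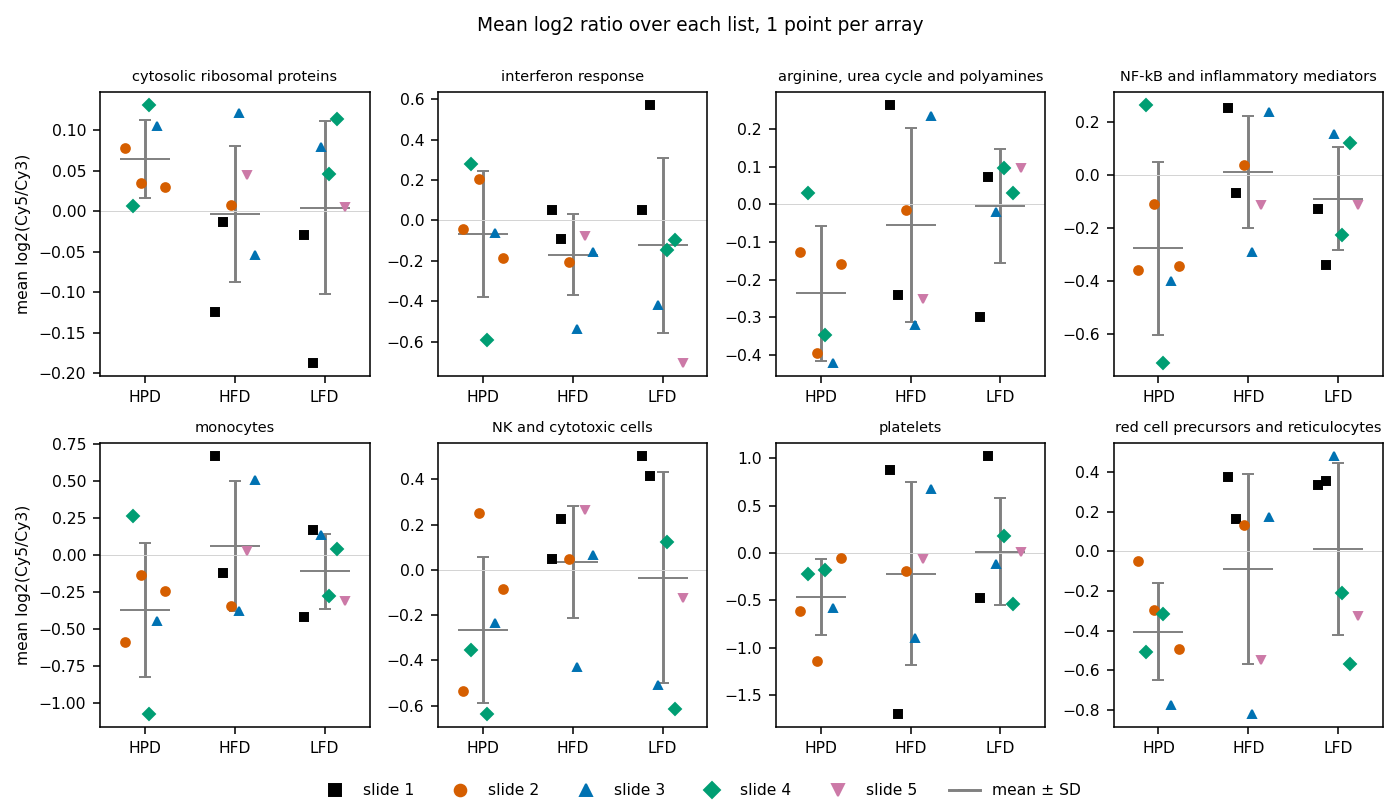
Mean log2 ratio over the measured genes of 8 lists on each array, with HPD, HFD and LFD from left to right, symbols for the slides, and grey bars for the mean and SD of a diet. The ribosomal mean is above 0 on all 6 HPD arrays, while the monocyte mean is above 0 on 1 HPD array, replicate 2, at 0.26.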

How the data were processed

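RNA of 18 rats was measured on Agilent 2-colour rat arrays, and scanned by the authors with software that the submitters' processing notes name as Agilent Feature Extraction 10.5.1.1. The deposited processed signals are intensity values, background-subtracted and dye-normalized per the file headers. A second deposited table, of log2 values with unknown centring and column medians of 8.4, served as an alternative (correlation of array differences 0.887). The log2 ratio of Cy5 to Cy3 processed signals was taken per spot, without control spots and spots marked as outliers, and averaged per probe. Of 41012 probes, 23823 were tested, namely probes flagged well above background in Cy5 on 9 or more arrays. Dlat and Eif2b5 had 5 LFD values each. Diet means were fitted over all arrays by limma 3.58.1 (R 4.3.3), two-sided, with Benjamini-Hochberg adjustment over all probes and a threshold of 0.05, and the procedure was tested on simulated data. A gene is its brightest tested probe. Names come from RefSeq genes (GRCr8), matched for 20764 probes, and probe positions are those of the array design (rn4), with their place inside genes not analysed here. Named genes are the 10 per side with the smallest p among those on one side of both diets. Up to 5 of each amino acid list and 3 of each other list were added, and others are marked as chosen after their values were seen. The list members came from the side of both diets that more of the list took. They share its direction by choice, and members on the other side were left out. Differences ran from -0.73 to 0.68 in the interferon list. They ran from -0.44 to 0.19 in branched-chain breakdown and from -0.55 to 0.32 in transamination. Defining markers were named besides. The comparison, the members and the lists were chosen with earlier results of these data known. Samples are separate animals, as the labels describe. The number of arrays limits the precision. Same-numbered arrays had correlations between -0.347 and 0.252 (16 pairs, 6 over 0.1). These were not set against arrays of different numbers, so whether the numbers pair samples was not tested, and no pairing was used.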

Additional observations from a re-analysis of the deposited data

Results flagged for a closer look

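In 18 of 462 diet groups examined, over the named genes and the list means, 1 array lay far from the other 5 of its diet. Chance marks about 1 in 20 groups. On HPD arrays these were Glycam1 in replicate 4 at 1.23 (nearest 0.72), Zdhhc20 in replicate 4 at 0.28, Ift43 in replicate 4 at -1.36, Glud1 in replicate 3 at 0.15, Rfx5 in replicate 3 at 1.17 and Prtn3 in replicate 2 at -0.28. For Glycam1 the array that stood apart was the highest of the diet, so the other 5 also lay above all HFD and LFD arrays. In HPD replicate 2 the means of the ATF4 list (0.07) and of glycolysis (0.12) also stood above the rest. On HFD arrays they were Slc39a1 in replicate 3 at -0.99, Slpi-ps1 in replicate 2 at 0.32, Oxct1 in replicate 2 at 0.41 and Ccl2 in replicate 4 at -1.34, with the list means of methionine, cysteine and glutathione in replicate 2 (0.08), the proteasome in replicate 3 (-0.11) and NK and cytotoxic cells in replicate 4 (-0.43). On LFD arrays they were Ftl1 in replicate 2 at 0.60, Lgmn in replicate 6 at -0.55 and the mean of arginine, urea cycle and polyamines in replicate 1 at -0.30.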

How the results depend on the processing

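No probe was called for HPD against both diets under any of 39 other settings (0 called, lowest adjusted p between 0.153 and 1), nor for HPD against HFD (lowest adjusted p between 0.329 and 1). For HPD against LFD array weights called 1 probe, Fscn3, and the other settings called 0. The count of probes past an unadjusted p of 0.05 against both diets in one direction, 180, became 308 with normexp on all spots, 114 with the authors' deposited table, 450 without a filter, 484 with array weights, 290 with slide as a block (190 higher, 100 lower), 115 without slide 1 and 293 without LFD replicates 2 and 6, a setting chosen after seeing the data. Leaving out 1 array in turn gave 118 (without HPD replicate 5) to 355 (without LFD replicate 6), with 302 without HPD replicate 2. The replicate block gave 336 (183 higher, 153 lower) and 0 called, and whether the numbers pair samples was not tested. The count of probes whose groups do not overlap, 3, became 0 with normexp on all spots, 1 with normexp without marked spots, 1 with loess, 1 among probes above background on all arrays, 6 without slide 1 and 8 without LFD replicates 2 and 6, and 3 to 10 when 1 array was left out (10 without HPD replicate 2, 7 without HPD replicate 1, 6 without HPD replicate 4, 5 without HPD replicate 7, 6 without LFD replicate 6). The cause of these shifts was not tested, apart from the fewer or more probes and arrays that some settings hold.

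Signs turned for 25 genes, none of them among the 20 with the smallest p, in settings other than single slides. With Cy5 alone these were Slc36a1 (0.079), Oxct1 (-0.026), Dld (-0.042), Glud1 (0.034), Adi1 (0.013), Ifi35 (-0.026), Prtn3 (-0.028) and Ms4a2 (0.24). With normexp on all spots they were Gpt (0.013), Chac2 (0.020), Hadhb (-0.040) and Il4 (0.036), and with normexp without marked spots Chac2 (0.0051). With the authors' deposited table they were Glud1 (0.024), Oaz1 (9e-04) and Chac2 (0.014). With slide as a block they were Gpt (0.16), Qprt (-0.0014), Hadhb (-0.006), Srebf2 (0.013), Eif3k (-0.015) and Prtn3 (-0.14). Without slide 1 they were Slc3a2 (0.038), Dld (-0.013), Idh3g (-0.011), Acadvl (-0.065), Sc5d (0.073), Fkbp11 (-0.11) and Irf4 (-0.061). With the conflicting array counted as HFD they were Adi1 (0.040) and S100a8 (-0.079). The mean over probes turned Dlat (-0.054) and array weights Fkbp11 (-9e-04). Leaving out 1 array in turn gave Il4 -0.47 to 0.066 (highest without LFD replicate 6), Irf4 -0.046 (without HPD replicate 2) to 0.22, and Tnfrsf17 -0.041 (without HPD replicate 5) to 0.36. Of the 30 list medians, 8 kept their sign in all settings. Without HPD replicate 7, 11 of the 30 turned or shifted by over 1.5 times, and 13 with it counted as HFD; immediate early genes were the 1 list among them with a median over 0.1 in size. Probes near background and a single array on some slides limit the values within slides.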
